A study of Mus musculus with 21 samples.

Results

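Rrad, Gem, Rem1 and Rem2 encode the RGK proteins, a small family of GTPases within the Ras superfamily, and were studied in cultured smooth muscle cells of the mouse aorta. The members were taken as the probe sets whose annotated symbol is one of these 4 genes, which gave 4 of the 45101 probe sets in the table: 1 for Rrad, 1 for Gem and 2 for Rem2. They are 3 of the 18193 genes with a probe set of their own. No probe set carries the symbol Rem1, so it was not analysed here. Rrad was chosen by its difference from PBS on the 24 h arrays, so its values are given as a description, with no test. The other members came in through their family.

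RGK proteins bind the beta subunits of voltage-gated calcium channels and reduce the calcium current through them. The family also binds calmodulin and 14-3-3 proteins, and Rad is the product of Rrad. Unlike classical Ras proteins they lack the lipid anchor at the C terminus, and their amount in a cell is set largely by transcription. Gem is known as a gene that is induced rapidly by mitogens, and Rad has been described in arterial smooth muscle after vessel injury.

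The mice were C57BL/6J males aged 10 to 12 weeks, and their aortic cells were grown in medium with serum and were fed 24 h before stimulation. All stimuli were added in PBS, and the controls received PBS only. The treatments were an antibody to LTBR, the lymphotoxin beta receptor, at 10 µg/ml, TNFalpha at 1 ng/ml, or both agents at these doses. At 24 h there were 4 arrays each for PBS, anti-LTBR and TNF, numbered 0 to 3, and 3 arrays for both agonists, numbered 1 to 3. The earlier times, 2 h and 6 h, have a single array per condition (PBS, anti-LTBR and TNF), all numbered 0, and no array with both agonists. The labels do not say whether a number stands for a culture or an animal, so a p-value here may not reflect the spread between animals. It reflects the spread between arrays, which includes differences in cell type markers between the numbers, given below.

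The signal is the deposited linear intensity of a probe set, and the median probe set of an array had a signal of 106.8 to 139.0. Of 10 smooth muscle markers, 8 were above the array's own median on all 15 arrays at 24 h. The arrays numbered 0 stood apart. The summed signal of 8 endothelial markers was 16882 to 17906 on them at 24 h and 14353 to 16539 at 2 h and 6 h, against 723.3 to 2120.2 on the arrays numbered 1 to 3. The mean of Pecam1, an adhesion molecule of endothelium, was 5237 on the 24 h arrays numbered 0 and 188.2 on the others, and that of the smooth muscle myosin gene Myh11 was 137.8 and 1805. The arrays numbered 3 differed in another way. Their summed signal of 8 macrophage and leukocyte markers at 24 h was 2768.7 to 4030.6. It was 1018 to 1210.8 on number 0, 1409.9 to 1712.4 on number 1 and 1238 to 1691.1 on number 2. Since the group with both agonists has no array numbered 0, values on the numbers 1 to 3 alone are also given. In bulk samples, fewer cells of a type and less RNA per cell cannot be told apart.

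Rrad was low in cells that received PBS and higher with each agonist. At 24 h its signal on the PBS arrays numbered 0, 1, 2 and 3 was 4.9, 41.1, 50.8 and 9.7. With anti-LTBR it was 82.3, 257.1, 327.5 and 163.2 on the same numbers, and with TNF 87.2, 106.4, 176.9 and 101.9. With both agonists the arrays numbered 1, 2 and 3 had 307.4, 282.9 and 223.1. The PBS arrays lay below every treated array, and the arrays with both agonists lay above every array with TNF alone but overlapped those with anti-LTBR. For scale, 3.15% of 12446 genes tested had arrays with both agonists that all lay above those with TNF.

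**Figure D1:**
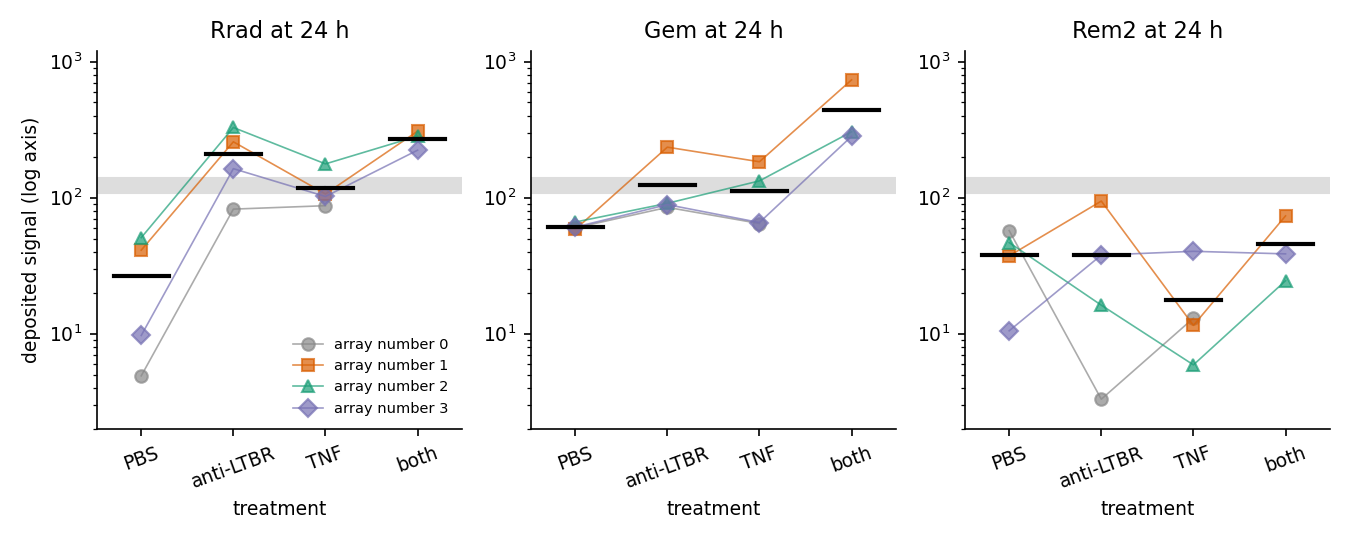
Deposited signal of Rrad, Gem and Rem2 (the first of its probe sets) at 24 h on a log axis, by treatment; each point is 1 array, lines join arrays of the same number, black bars are group means and the grey band is the range of the array medians. Rrad is at most 50.8 on each PBS array and at least 82.3 on each treated array, Gem is at least 282.0 on each array with both agonists and at most 234.8 on the others, and Rem2 lies below the band on all arrays.

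The mean Rrad signal was 26.6 ± 22.7 with PBS (SD, n = 4), 118.1 ± 40.05 with TNF (n = 4), 207.5 ± 107.2 with anti-LTBR (n = 4) and 271.1 ± 43.4 with both (n = 3). In this order, the neighbours PBS and TNF did not overlap, whereas TNF overlapped with anti-LTBR and anti-LTBR with both. On the scale log2(signal + 10.2), used for all log2 differences here, Rrad was 2.65 ± 0.47 (SE) above PBS with anti-LTBR, 1.996 ± 0.47 with TNF and 3.16 ± 0.51 with both. On the numbers 1 to 3 alone these differences were 2.66, 1.77 and 2.82. Among 12446 genes tested, 1.79% had anti-LTBR arrays that all lay above the PBS arrays, 1.61% had this for TNF and 6.7% for both agonists. These shares are given for scale only, because these contrasts chose the gene.

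Only 7 of the 15 Rrad signals at 24 h exceeded the median of their array, and all 7 were from treated cells. They were 3 of 4 with anti-LTBR, 1 of 4 with TNF and 3 of 3 with both. Because the PBS signals lie so close to the bottom of the scale, the size of the difference depends on the offset added before the logarithm. With an offset of 1, Rrad was 3.26, 2.57 and 3.81 above PBS with anti-LTBR, TNF and both, and with an offset of 36 it was 1.91, 1.34 and 2.36 above.

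Compared array by array with the PBS array of the same number, Rrad was higher in 4 of 4 arrays with anti-LTBR, by 2.38 to 3.12 on the log2 scale, and in 4 of 4 with TNF, by 1.18 to 2.69. With TNF the differences were 2.69 and 2.49 on the numbers 0 and 3, whose PBS signals of 4.9 and 9.7 lay below the offset, and 1.18 and 1.62 on the numbers 1 and 2. Between both agonists and anti-LTBR alone the Rrad signal did not differ in one direction. The log2 difference between both agonists and anti-LTBR was 0.25, -0.20 and 0.43 on the numbers 1, 2 and 3. Between both agonists and TNF alone it was 1.45, 0.65 and 1.06.

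Gem had PBS signals that were close together, though below the median of their arrays, and at 24 h it was highest when both agonists were present. The PBS arrays numbered 0, 1, 2 and 3 had Gem signals of 59.9, 58.3, 66.1 and 60.7. Anti-LTBR gave 84.8, 234.8, 90.8 and 88.8, and TNF gave 64.5, 183.4, 132.7 and 65.6. Both agonists gave 733.3, 304.5 and 282.0 on the numbers 1, 2 and 3. The arrays with both agonists lay above all the other arrays at 24 h, the anti-LTBR arrays lay above all PBS arrays, and the TNF arrays overlapped with PBS. Anti-LTBR arrays that all lay above PBS were found for 1.79% of the genes tested, and arrays with both agonists for 6.7%. Of the same genes, 3.15% had arrays with both agonists that all lay above those with TNF, and 3.69% above those with anti-LTBR.

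Gem rose with both agonists from 61.3 ± 3.4 (SD, n = 4) to 439.9 ± 254.3 (n = 3), by 2.52 ± 0.42 on the log2 scale, or 5.73-fold, with an adjusted p of 0.0046 (limma, Benjamini-Hochberg over 12446 genes). It was higher in 3 of 3 arrays than in PBS of the same number. Summed signals of some cell type markers also differed between both agonists and PBS, without a test. The ranges overlapped, and those of PBS include the array numbered 0. The summed signal of the 10 smooth muscle markers was 46908 to 59959 with both agonists and 54295 to 70066 with PBS, and was lowest with both agonists on each of the numbers 1 to 3. That of the 6 fibroblast markers was 6268.6 to 12547 with both and 4863.7 to 9648.9 with PBS, and was highest with both on the numbers 1 and 3. Their part in the Gem signal was not tested. In this comparison 1.82% of the genes tested were called higher. On the numbers 1 to 3 alone the difference was 2.51 (adjusted p = 0.0132 with limma). Gem entered the test because 6 of its 15 signals exceeded the array median, 1 with anti-LTBR, 2 with TNF and 3 with both. It was also called when no filter on signal was used (adjusted p = 0.00567 with limma), and over all alternatives its adjusted p ranged from 3.89e-05 to 0.0339.

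With a single agonist Gem did not pass the test at 24 h. Its mean was 124.8 ± 73.4 with anti-LTBR and 111.6 ± 57.5 with TNF (n = 4 each), which was 0.79 ± 0.39 and 0.65 ± 0.39 above PBS on the log2 scale, with an adjusted p of 0.999 and 1.00 in limma. With the array number as a block the adjusted p in limma was 0.102 with anti-LTBR and 0.174 with TNF, so neither was called. Gem was above PBS of the same number in 4 of 4 arrays for each agonist. The share of all genes with such a count was not computed. The differences from PBS of the same number were 0.40 to 1.84 with anti-LTBR and 0.09 to 1.499 with TNF. With TNF they were only 0.09 on number 0 and 0.10 on number 3. The array numbered 1 was the highest of its group with anti-LTBR, with TNF and with both agonists, but the lowest of the 4 PBS arrays. On the 24 h arrays numbered 1, the summed signal of 6 fibroblast markers was 9489.6 to 12547, against 4863.7 to 7293.5 on the numbers 2 and 3, which was not tested as a part of the Gem signal either.

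Gem was higher with both agonists than with either alone in 3 of 3 arrays of the same number. The difference from anti-LTBR was 1.60, 1.64 and 1.56 on the numbers 1, 2 and 3, and that from TNF was 1.94, 1.14 and 1.95. In limma the differences were 1.73 ± 0.42 from anti-LTBR (adjusted p of 0.153) and 1.87 ± 0.42 from TNF (adjusted p of 0.266), neither of which was called. With the array number as a block they were 1.62 and 1.76 and passed the test, at 0.00385 and 0.00262. The block raised the share of genes called higher from 0.362% to 2.78% against anti-LTBR and from 0.0482% to 3.46% against TNF. Over all alternatives the adjusted p in limma ranged from 0.00385 to 0.738 against anti-LTBR and from 0.00262 to 0.948 against TNF.

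On the linear scale, the signal above PBS with both agonists was larger than the summed single increments for Gem and smaller for Rrad. On the numbers 1, 2 and 3 the signal of Gem with both agonists exceeded PBS by 675.0, 238.4 and 221.3, whereas the increments of the single agonists summed to 301.6, 91.3 and 33.0. Both agonists together gave 2.66 times the summed increments in the mean. For Rrad the increments with both were 266.3, 232.1 and 213.4, and the sums 281.3, 402.8 and 245.7, a ratio of 0.766 in the mean. The combination exceeded the sum in 3 of 3 arrays for Gem and in 0 of 3 for Rrad. Such counts were not made over all genes, so these have no scale here.

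**Figure D2:**
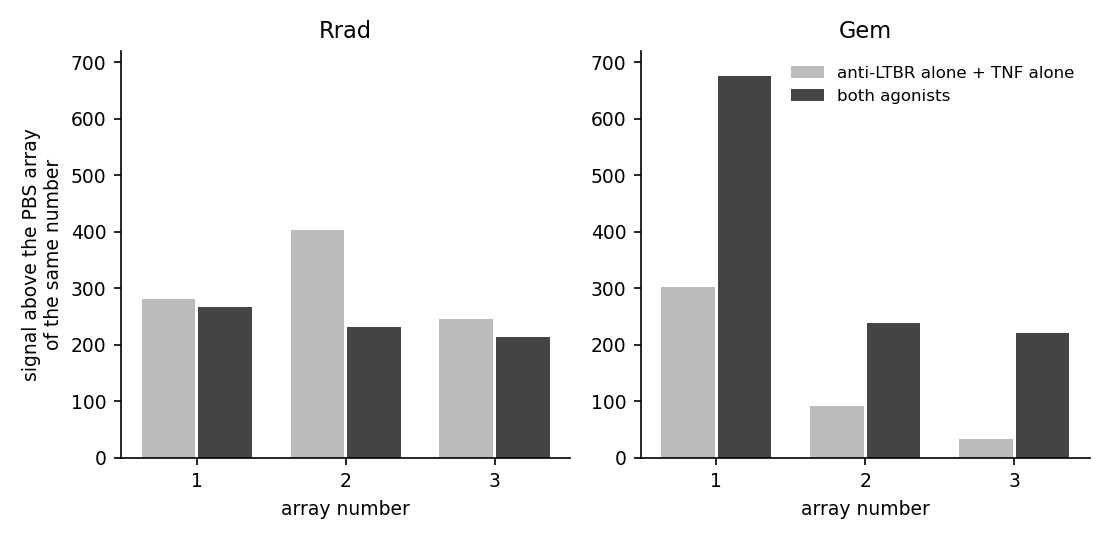
Signal above the PBS array of the same number at 24 h, for Rrad and Gem, on the array numbers 1 to 3; grey bars are the anti-LTBR and TNF increments added together and dark bars the increment with both agonists. For Gem each dark bar is taller than its grey bar (675.0 against 301.6 on number 1), and for Rrad each is shorter (232.1 against 402.8 on number 2).

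The departure from additivity on the log2 scale was 1.08 ± 0.58 for Gem, which did not pass the test (adjusted p = 1.00 in limma, against 0.456 in the blocked fit). In this contrast 0 of 12446 genes were called, 165 (1.33%) had an unadjusted limma p under 0.05, and 2 (0.0161%) were called with the block. For Rrad, with no test, it was -1.48 ± 0.69. Whether Gem and Rrad differ in this respect was not tested.

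The time courses of Gem and Rrad differed in shape on the arrays numbered 0, with 1 array at each point and hence no replicate check at 2 h and 6 h. This difference was not tested. All arrays of the time course are numbered 0, the ones with summed endothelial signals of 14353 to 17906, whose part in these values was not tested. After TNF the Gem signal on the arrays numbered 0 was 637.3 at 2 h, 214.0 at 6 h and 64.5 at 24 h, while PBS gave 46.6, 78.7 and 59.9. The log2 difference from PBS was thus 3.51 at 2 h, an 11.4-fold difference, then 1.33 at 6 h and 0.09 at 24 h. At 2 h this was the 8th largest of 11737 genes ranked, of which 1.61% were at least 2-fold higher. At 6 h it was the 126th largest of 11690, of which 2.17% were at least 2-fold higher.

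**Figure D3:**
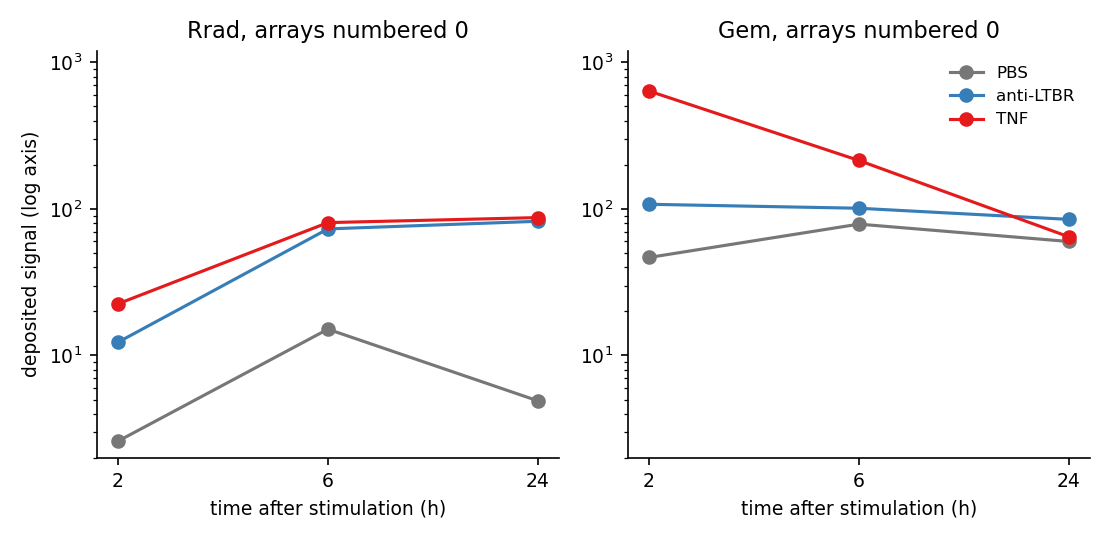
Deposited signal of Rrad and Gem on the arrays numbered 0 at 2 h, 6 h and 24 h (times evenly spaced), on a log axis, for PBS, anti-LTBR and TNF; each point is 1 array. Gem is 637.3 at 2 h of TNF and 64.5 at 24 h, whereas Rrad is 22.5 at 2 h of TNF and 87.2 at 24 h.

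The Rrad signal was highest at 24 h with each agonist. With TNF its signal was 22.5 at 2 h, 80.6 at 6 h and 87.2 at 24 h, and with anti-LTBR it was 12.3, 73.0 and 82.3. PBS gave 2.6, 15.1 and 4.9. The log2 difference from PBS at 2 h, 6 h and 24 h on these arrays was 1.35, 1.84 and 2.69 with TNF and 0.81, 1.72 and 2.61 with anti-LTBR. At 2 h and 6 h each Rrad signal lay below the median of its array, so the 2 h differences in particular rest on signals near the bottom of the scale. With an offset of 1 the order of the early TNF differences turned, to 2.71 at 2 h and 2.34 at 6 h, while those of anti-LTBR were 1.89 and 2.20.

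At the early times the Gem signal was lower with anti-LTBR than with TNF. The Gem signal was 107.5 at 2 h, 101.0 at 6 h and 84.8 at 24 h with anti-LTBR, a log2 difference from PBS of 1.05, 0.32 and 0.44. On these early anti-LTBR arrays 0.497% of the genes ranked at 2 h and 0.784% at 6 h were at least 2-fold higher, but Gem was below the array median on both and was not ranked. The highest Gem signal of the 21 arrays was 733.3, with both agonists at 24 h on number 1, followed by 637.3 on the single array with TNF at 2 h, and these do not give an order of the conditions. The early Rrad signals, at most 80.6, lay below each treated array at 24 h. On number 0, the only number with early arrays, the margin was small, with 24 h signals of 82.3 with anti-LTBR and 87.2 with TNF.

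Rem2, which is best known from neurons and endocrine cells, had no signal above the median of its array on any of 21 arrays with either probe set, and was not tested. On the first probe set the 24 h signals were 57.2, 37.3, 46.7 and 10.5 with PBS on the numbers 0 to 3 and 3.3, 94.3, 16.2 and 37.8 with anti-LTBR. TNF gave 13.0, 11.5, 5.9 and 40.3, and both agonists 73.4, 24.5 and 38.6 on the numbers 1 to 3. All 4 groups overlapped. The second probe set, of a type that may bind related transcripts, had signals of 2.3 to 10.7 at 24 h. On the arrays numbered 0 the signal of the first probe set was lower with either agonist than with PBS at each time. At 6 h it was 2.2 with anti-LTBR and 5.3 with TNF against 48.8. On the numbers 1 to 3 at 24 h the direction differed between arrays, with log2 differences from PBS of -1.82 to 1.29 for TNF and -1.11 to 1.21 for anti-LTBR.

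The genes for targets and partners of RGK proteins and the other genes of the wider family were looked at in 3 lists. Over all 12446 genes, limma called 0.129% higher and 0% lower with anti-LTBR, 0.337% and 0% with TNF, and 1.82% and 0.635% with both agonists. At an unadjusted p under 0.05 the shares were 4.31%, 4.71% and 11.5%. With the block, 2.55% were called higher and 2.21% lower with anti-LTBR, 3.06% and 2.88% with TNF, and 9.1% and 10.4% with both. Of 26 genes for voltage-gated calcium channel subunits 14 were tested, and 0 were called with anti-LTBR, with TNF or with both agonists (0, 1 and 1 at an unadjusted limma p under 0.05). Their median log2 difference with both agonists was -0.08, against 0.00 over all genes. Most had signals near the array medians of 106.8 to 139.0. The PBS means were 873.7 for Cacna2d1, 418.4 for Cacng7 and 81.8 to 206 for the others. The lack of calls thus does not show that these genes were unchanged. Cacna1c, the pore subunit of the L-type channel of smooth muscle, had a signal of 150.4 ± 29.6 with PBS (n = 4) and 114.2 ± 8.7 with both (n = 3), a difference of -0.35 ± 0.19 (adjusted p = 0.549, limma). Cacnb2, a beta subunit to which RGK proteins bind, had 146.9 ± 35.0 and 128.0 ± 42.1, a difference of -0.20 ± 0.33 (adjusted p = 0.922, limma). With the block 1 subunit was called lower with both agonists, beside 10.4% of all genes. This was Cacnb4, another beta subunit, with 125.8 ± 30.5 in PBS and 65.1 ± 21.4 with both. Its signals with both, 40.4 to 77.6, lay below the range of the array medians. Its difference was -0.87 ± 0.33 without the block (limma, p of 0.281 after adjustment) and -1.01 with it (0.00382). It was named after its values were seen.

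Of 20 further binding partners and regulators, among them calcium/calmodulin kinases and 14-3-3 proteins, 15 were tested (none of them a calmodulin gene) and 0 were called in the 3 comparisons with PBS by limma (0, 0 and 1 at an unadjusted p under 0.05). Their median with both agonists was -0.10. With the block 6 of the 15 fell and 0 rose with both agonists, beside 10.4% and 9.1% of all genes. The list as a set was not tested. Kif9, a kinesin gene whose product binds Gem, had a difference of -0.10 ± 0.28 (adjusted p = 0.96, limma). At 6 h of TNF 1 of 14 ranked genes of this list was at least 2-fold higher, Camk2a, beside 2.17% of all genes ranked. This rests on 1 array each. Camk2a has 2 probe sets above the filter, which differed in direction with both agonists at 24 h (-0.63 and 0.11).

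**Figure D4:**
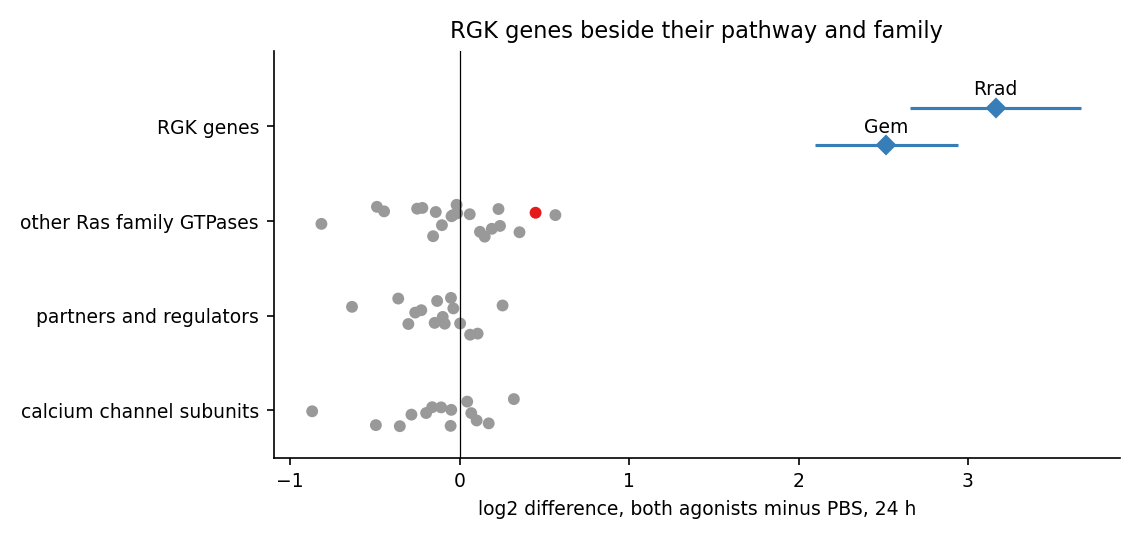
Log2 difference between both agonists and PBS at 24 h for the RGK genes with limma's SE as bars, and for the tested genes of 3 lists, each point 1 gene; red marks an adjusted p under 0.05 (the RGK genes are drawn in blue whatever their test). The points of the lists lie between -0.87 and 0.57, while Gem is at 2.52 and Rrad at 3.16.

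Of 31 other Ras family GTPase genes 21 were tested. With both agonists 1 rose and 0 fell, beside 1.82% and 0.635% of all genes, and the median was -0.02. The gene called was Rap2b, a Ras-related GTPase of the Rap branch, which had a signal of 1145 ± 121.2 with PBS and 1563 ± 137.9 with both, a rise of 0.45 ± 0.10 or 1.36-fold (adjusted p = 0.0215 in limma, 0.00121 to 0.112 over the alternatives). These values are from 1 of its 3 probe sets above the filter. The others rose by only 0.23 and 0.16, and the alternatives give no p for them. The call of Rap2b was lost on the numbers 1 to 3 (adjusted p = 0.0595) and with equal array medians (0.0675), and 5 of the 15 arrays ended it when left out. These were the PBS arrays numbered 0, 1 and 2 and the arrays numbered 2 and 3 with both agonists, with an adjusted p of 0.0515 to 0.112. With the block 5 genes of this list rose and 5 fell with both agonists, beside 9.1% and 10.4% of all genes. At 2 h of anti-LTBR, with 1 array each, 1 of 21 ranked genes of this list was at least 2-fold higher, beside 0.497% of all genes ranked. This was Rasd2 (1.08 on the log2 scale). No other gene of the 3 lists was 2-fold higher or lower at 2 h or 6 h except Camk2a. With a single agonist 0 genes of this list were called (2 at an unadjusted p under 0.05 for each agonist). With the block 3 rose and 1 fell with anti-LTBR, beside 2.55% and 2.21% of all genes. For TNF 1 rose with the block, beside 3.06%. The median differences of the 3 lists lay between -0.10 and 0.01 in the 3 comparisons with PBS. Gmip lay below the signal filter, and Cacnb3 has no probe set of its own among those annotated here.

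The genes whose log2 signals over the 15 arrays at 24 h were most like those of Rrad were Zbtb43, a zinc finger gene (Pearson r = 0.892), Rrp1b (0.888), the major vault protein gene Mvp (0.886), the poly(ADP-ribose) polymerase family gene Parp3 (0.868) and Birc3, an inhibitor of apoptosis in NF-kB signalling (0.865). Those most like Gem were Enpp4 (0.944), 1500009L16Rik (0.912), the chemokine gene Ccl9 (0.912), Rbm43 (0.911) and Poglut1 (0.904). With both agonists Mvp was 1.25, Birc3 2.43 and Ccl9 2.05 above PBS on the log2 scale. These arrays share treatments and numbers, so the values describe likeness only. Rrad and Gem had a correlation of 0.689 with each other, and Gem was the 222nd of 12445 genes by likeness to Rrad. Over all 21 arrays 2 of the 5 genes stayed among the 5 most like Rrad, which included Mvp as the most like, and 0 of 5 among those most like Gem.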

How the data were processed

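The deposited values are linear signal intensities, 1 per probe set and array, made with GCOS 1.4 per the submitters' processing notes. How probes were summarized and corrected for background is not given in the sources used here. Signals were taken as deposited and put on the scale log2(signal + 10.2); the offset is the 10th percentile of the 24 h arrays. Such a log2 difference understates changes of low signals. Gene symbols come from the platform annotation, updated through Entrez IDs to GRCm38.p6 names; 34945 probe sets carry 1 symbol. A probe set was tested if above its array's median on at least 3 of 15 arrays at 24 h, with the highest probe set for each of 12446 genes. The 15 arrays were fitted together with limma 3.58.1 in R 4.3.3 (variance trend, 11 residual degrees of freedom, 7 contrasts); a call is a Benjamini-Hochberg adjusted p under 0.05. The code was tested on simulated data. The number of arrays limits the precision.

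The main fit had no block. After removal of group means, same-numbered arrays correlated at 0.462 to 0.811 (21 pairs) and the 63 other pairs at -0.584 to 0.217, and 15 of 15 arrays correlated best with one of their own number, so the numbers pair the arrays.

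The members and the lists were chosen with earlier results of these data known. Rrad got no test. Genes named besides the members were the 5 most correlated with Rrad and with Gem, called list members (up to 4 a list), and Cacna1c, Cacnb2, Cacnb3, Gmip and Kif9 where tested; 1 further list and its genes are not reported here. Alternatives were the block, offsets of 1 and 36, equal medians, quantile normalization, no filter, every probe set, no variance trend, the numbers 1 to 3, and each array left out. Promoter and protein sequences of Rrad and Gem were not used here.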

Additional observations from a re-analysis of the deposited data

Results flagged for a closer look

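On the anti-LTBR array numbered 1 at 24 h the Gem signal was 234.8, while the next highest array of that group had 90.8, a gap of 0.96 of the group's range and above Dixon's 95% critical value for 4 samples. The same number was also the highest for Gem with TNF (183.4) and with both agonists (733.3). Of 27 groups of 4 arrays looked at, 1 was marked in this way, and chance marks about 5% of groups. Without this array Gem was 0.46 above PBS with anti-LTBR on the log2 scale.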

How the results depend on the processing

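Gem kept its call with both agonists against PBS under all 9 other settings (2.17 to 2.68) and with each of the 15 arrays left out (2.09 to 2.76, adjusted p = 0.00234 to 0.0339 in limma), and stayed uncalled with each single agonist in all of them. The block changed the calls of Gem against each single agonist, as given above, and no other call of Gem against PBS. Rrad kept its direction in the 7 contrasts throughout. With an offset of 36 its differences from PBS became 1.91 with anti-LTBR and 2.36 with both agonists. At 2 h, an offset of 1 gave Rrad 1.89 with anti-LTBR and 2.71 with TNF, and an offset of 36 gave 0.60 with TNF. Leaving out arrays moved Rrad to between 2.30 and 3.01 with anti-LTBR, 1.65 and 2.32 with TNF, and 2.82 and 3.49 with both. Gem ranged from 0.46 to 0.92 with anti-LTBR and from 0.38 to 0.84 with TNF. Between TNF and anti-LTBR, which was not called, the difference of Gem (-0.14) went from -0.41 to 0.19 and changed sign without each of 3 arrays, and that of Kif9 with both agonists (-0.10) from -0.28 to 0.19, with a change of sign without 1 array. The cause was not tested.

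The number of genes called depended on the block: 16 became 592 with anti-LTBR, 42 became 739 with TNF, 306 became 2422 with both, 6 became 843 for both against TNF, 45 became 701 for both against anti-LTBR and 2 became 91 for TNF against anti-LTBR. With equal medians they were 7, 181 with both, 0 for both against TNF, 24 for both against anti-LTBR and 0 for TNF against anti-LTBR. With arrays left out they were 6 to 27, 21 to 50, 166 to 318, 0 to 5, 7 to 60 and 0 to 3. For Rem2 at 24 h, the second probe set gave 0.28, 0.08 and -0.03 in place of -0.27, -0.80 and 0.24. With the means of each number removed, 0 of the 5 genes most like Rrad and 1 of 5 most like Gem remained.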
